A study of Homo sapiens with 6 samples.

Results

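HERVK is the name of the internal consensus sequence of HML-2, the youngest group of endogenous retroviruses of the human genome, and LTR5_Hs, LTR5, LTR5A and LTR5B are its long terminal repeats. These 5 sequences were taken by name from 1047 in the deposited tables, and all 5 passed the count filter that left 699 for testing. A complete provirus carries the genes gag, pro, pol and env between a pair of LTRs. The upstream LTR serves as promoter and the downstream LTR ends the transcript. Many copies have lost the internal part by recombination and remain as solitary LTRs. LTR5_Hs is the most recent LTR type and is known to be active in human pluripotent cells and early embryos, whereas LTR5A and LTR5B belong to older insertions.

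RNA came from 6 libraries of H1, a human embryonic stem cell line in feeder-free culture. All lines carried a doxycycline (dox)-inducible short hairpin RNA against EXOSC3, part of the RNA exosome, which trims and destroys transcripts starting at the 3' end. EXOSC3r clone 1 and EXOSC3r clone 2 also carried a hairpin-resistant EXOSC3 transgene, and PB cells carried an empty vector. Each of the 3 lines gave 1 library with dox, which induces the hairpin, and 1 without. Each EXOSC3r line is a single clone, and the PB condition has no replicate. The p-values rest on the spread between the 2 clones or, for dox across the 3 lines, of the change over the lines. For each sequence, the edgeR test draws that spread toward a value shared over all tested sequences. Levels of EXOSC3 and of pluripotency markers were not analysed here. In bulk RNA, fewer cells that express a sequence and less RNA per cell cannot be told apart.

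The estimated counts assigned to the 1047 sequences summed to between 3745262 and 5260196 per library, which is not sequencing depth. Alu took 52.5% of them in EXOSC3r clone 1 with dox and between 33.0% and 45.4% in the other libraries, so that clone 1 with dox stood apart in composition. Levels are given as TMM-scaled CPM, which relate each count to the library's total after scaling between libraries. Levels of different sequences are compared only as TPM, which divides by length.

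HERVK was among the most abundant internal retroviral sequences in these cells. Per length, its TPM ranked 3 of 48 sequences with HERV or HUERS names in EXOSC3r clone 1 with dox and 4 in each of the other 5 libraries. HERVH, the retrovirus most transcribed in human pluripotent cells, stood above it in every library. Among the 5 sequences, LTR5_Hs had the highest TPM in 6 of 6 libraries, between 370 and 603. HERVK, between 152 and 282 TPM, was next in 3 libraries and lay below LTR5A in the other 3, EXOSC3r clone 1 without dox, EXOSC3r clone 2 with dox and PB with dox.

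HERVK differed widely between libraries, and the direction with dox depended on the line. In EXOSC3r clone 1 it was at 7974 CPM with dox and 5050 CPM without. In EXOSC3r clone 2 it was at 4171 CPM with dox and 6437 CPM without. In PB cells it was at 4101 CPM with dox and 6221 CPM without. It was thus higher with dox in clone 1, and lower with dox, to nearly the same level, in clone 2 and PB cells. The levels with and without dox overlapped over the 3 lines.

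LTR5_Hs, the promoter of the youngest insertions, ranked the libraries almost as HERVK did. It was at 1987 CPM with dox and 1343 CPM without in EXOSC3r clone 1, at 1193 CPM with dox and 1553 CPM without in EXOSC3r clone 2, and at 1245 CPM with dox and 1423 CPM without in PB cells. By TMM-scaled CPM, the 4 highest libraries came in the same order for both sequences, led by clone 1 with dox. Only the 2 lowest changed places.

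Of the other LTRs, LTR5A and LTR5B varied little, and LTR5 varied more. LTR5A was at 603 CPM with dox and 622 CPM without in EXOSC3r clone 1, at 565 CPM with dox and 602 CPM without in clone 2, and at 541 CPM with dox and 545 CPM without in PB cells. LTR5B was at 469 CPM with dox and 492 CPM without in clone 1, at 465 CPM with dox and 459 CPM without in clone 2, and at 480 CPM with dox and 451 CPM without in PB cells. LTR5 was at 361 CPM with dox and 391 CPM without in clone 1, at 416 CPM with dox and 390 CPM without in clone 2, and at 445 CPM with dox and 386 CPM without in PB cells. In clone 1 with dox, where HERVK and LTR5_Hs were highest of the 6 libraries under TMM scaling, LTR5 was lowest. As a share of assigned counts, HERVK was not highest there. It was at 0.593%, against 0.710% in PB cells and 0.653% in clone 2, both without dox. The LTR5_Hs share was 0.148% there, against 0.162% in PB cells and 0.158% in clone 2, both without dox. The place of this library thus depended on the scaling. From the lowest to the highest library, HERVK spanned 0.96 and LTR5_Hs 0.74 on the log2 scale, against 0.30 for LTR5, 0.20 for LTR5A and 0.13 for LTR5B. The median span of the 253 sequences with a mean of at least 100 CPM was 0.22.

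**Figure D1:**
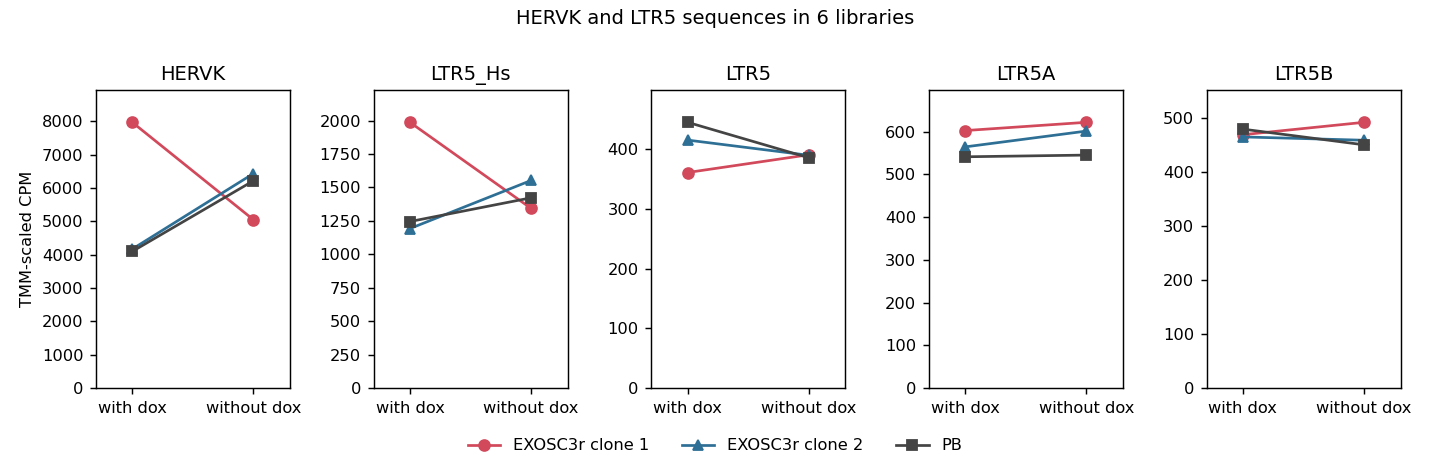
Level of each of the 5 sequences (TMM-scaled CPM, y axis from 0 and scaled per panel) with and without dox. Each point is 1 library and each line joins the 2 libraries of a cell line; HERVK and LTR5_Hs cross between EXOSC3r clone 1 and the other lines, and LTR5A and LTR5B stay nearly flat.

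The change with dox was then taken within each line, as the log2 ratio of the library with dox over that without. For HERVK it was 0.66 in EXOSC3r clone 1 (95% counting interval 0.63 to 0.68), -0.63 in EXOSC3r clone 2 (-0.65 to -0.60) and -0.60 in PB cells (-0.63 to -0.58). For LTR5_Hs it was 0.56 in clone 1 (0.51 to 0.62), -0.38 in clone 2 (-0.43 to -0.33) and -0.19 in PB cells (-0.24 to -0.14). The intervals are exact, from the estimated counts, and cover counting error only. With 1 library per line and arm, a line's own change has no replicate check. The 2 clones, which carry the same transgene, therefore moved in opposite directions, by a fold of 1.58 in clone 1 and 0.65 in clone 2 for HERVK.

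The LTR5A changes were -0.05 in clone 1, -0.09 in clone 2 and -0.01 in PB cells. For LTR5B they were -0.07 in clone 1, 0.02 in clone 2 and 0.09 in PB cells, and for LTR5 -0.11 in clone 1, 0.09 in clone 2 and 0.21 in PB cells. The largest of these 9 values was smaller than the change of HERVK in any line. The counting interval of LTR5 was -0.22 to -0.01 in clone 1, -0.01 to 0.19 in clone 2 and 0.12 to 0.29 in PB cells. In each line LTR5 and LTR5_Hs changed with opposite signs.

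**Figure D2:**
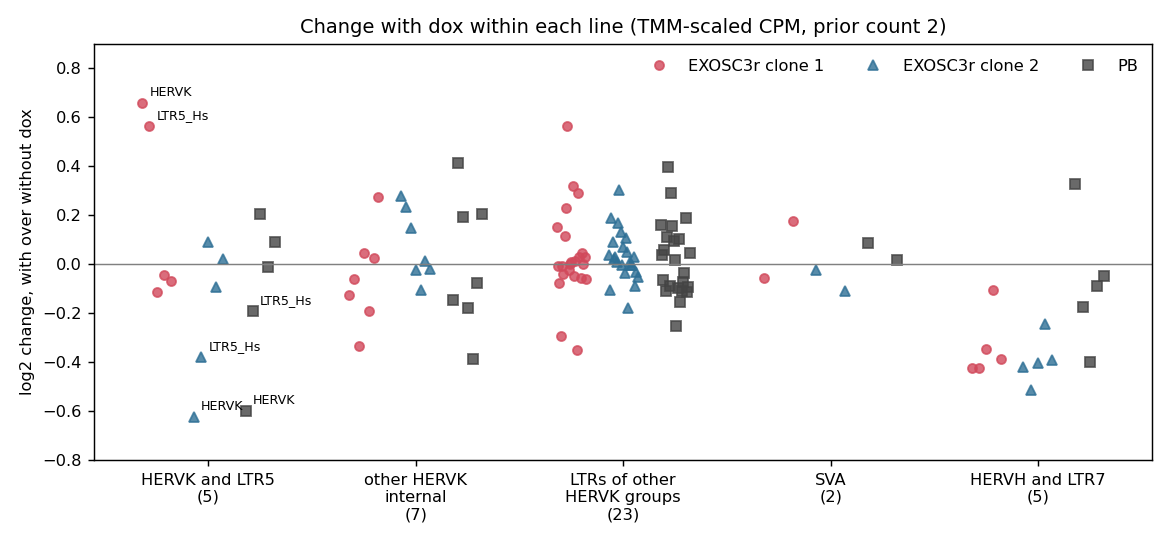
Log2 change with over without dox within each line (y axis), for the 5 HERVK and LTR5 sequences and 4 lists of related sequences, with the number of sequences in parentheses. Each point is 1 sequence in 1 line; HERVK and LTR5_Hs lie at 0.66 and 0.56 in EXOSC3r clone 1 and below 0 in EXOSC3r clone 2 and PB cells.

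The difference of these changes between the clones was set beside all abundant sequences, as a description without a test. Clone 1 minus clone 2 was 1.28 on the log2 scale for HERVK and 0.95 for LTR5_Hs. By size these were ranked 1 and 2 of the 253 sequences with a mean of at least 100 CPM, whose median size was 0.08. Over sequences with a mean of at least 20 CPM they ranked 3 and 7 of 454. Among all 699 tested sequences, whose median size was 0.19, they ranked 38 and 70. The differences of LTR5 (-0.21), LTR5B (-0.09) and LTR5A (0.05) ranked 39, 121 and 174 of 253. Opposite signs in the 2 clones alone were common, at 41.9% of the 253 sequences. Changes past 0.3 in both clones with opposite signs were found in 3 of them, HERVK, LTR5_Hs and CHESHIRE_A. Without the limit on the mean, 49 of the 699 tested sequences had such changes. CHESHIRE_A, a DNA transposon sequence, was picked out after its values were seen.

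Alu and library composition moved with this pattern. Alu ranked 4 by the same difference, with log2 changes of 0.44 in clone 1, -0.17 in clone 2 and -0.27 in PB cells. Scaled to Alu counts in place of TMM, the HERVK changes were 0.22 in clone 1, -0.45 in clone 2 and -0.34 in PB cells. Those of LTR5_Hs were then 0.12 in clone 1, -0.21 in clone 2 and 0.07 in PB cells, with the sign in PB cells turned by the shift of all sequences. Scaled to the summed ACTB and GAPDH counts, the HERVK changes were 0.50 in clone 1, -0.49 in clone 2 and -0.43 in PB cells. Those of LTR5_Hs were 0.41 in clone 1, -0.25 in clone 2 and -0.02 in PB cells. The Alu and the ACTB and GAPDH scalings moved the median of all tested sequences by -0.44 and -0.16 in clone 1, by 0.17 and 0.14 in clone 2 and by 0.27 and 0.17 in PB cells. Relative to that median, LTR5_Hs in PB cells was at -0.20 under TMM and under both of these scalings. A scaling moves every sequence of a library alike, so values relative to the median stay nearly the same by construction. The part of library composition in the result was not tested beyond these values.

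**Figure D3:**
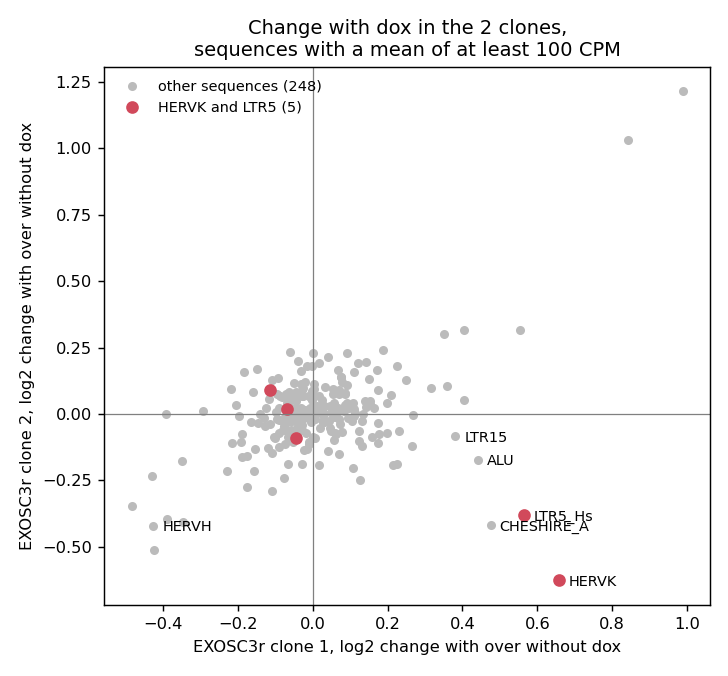
Log2 change with over without dox in EXOSC3r clone 1 (x axis) and EXOSC3r clone 2 (y axis) for the 253 sequences with a mean of at least 100 CPM, each a point. HERVK and LTR5_Hs lie farthest into the lower right, at 0.66 and -0.63 and at 0.56 and -0.38, while the other 3 LTRs lie near 0.

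Against this spread, no HERVK or LTR5 sequence passed the edgeR quasi-likelihood test with Benjamini-Hochberg adjustment over 699 sequences in any of 6 comparisons. None had an unadjusted p under 0.05 either. Dox in PB cells gave 0 of 5, against a background of 0.858% called among all 699 and 4.01% with an unadjusted p under 0.05. HERVK had a log2 change of -0.60 ± 0.41 there (SE, adjusted p = 1.00), and LTR5_Hs of -0.19 ± 0.32. LTR5 had 0.21 ± 0.12, LTR5B 0.09 ± 0.10 and LTR5A -0.01 ± 0.10.

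Dox in EXOSC3r cells gave 0 of 5, against a background of 0.143% (unadjusted 3.15%). HERVK was at 6073 ± 2689 CPM with dox and 5744 ± 981 CPM without (SD, n = 2 clones). The fitted log2 change was 0.08 ± 0.29 (SE; edgeR, adjusted p = 1.00). LTR5_Hs was at 1590 ± 562 CPM with dox and 1448 ± 148 CPM without, a log2 change of 0.13 ± 0.22. These means near 0 average a higher and a lower clone. LTR5A, at 584 ± 27.0 CPM with dox and 612 ± 14.5 CPM without, had -0.07 ± 0.07.

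The response to dox in PB cells minus that in EXOSC3r cells was then tested as an interaction, with 0 of 5 called against a background of 0% (unadjusted 1.29%). For HERVK it was -0.68 ± 0.50 on the log2 scale (SE, edgeR, adjusted p = 1.00) and for LTR5_Hs -0.33 ± 0.39. LTR5 had 0.21 ± 0.15, LTR5B 0.12 ± 0.12 and LTR5A 0.06 ± 0.12.

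EXOSC3r cells were next compared with PB cells under dox, which gave 0 of 5 against a background of 1% (unadjusted 7.58%). HERVK was at 6073 ± 2689 CPM in EXOSC3r cells (SD, n = 2) and 4101 CPM in PB cells. They differed by 0.57 ± 0.36 on the log2 scale (SE; edgeR, adjusted p = 0.80). LTR5_Hs was at 1590 ± 562 CPM in EXOSC3r cells and 1245 CPM in PB cells, a difference of 0.35 ± 0.28 (adjusted p = 0.86). Scaled to ACTB and GAPDH, HERVK differed by -0.19 ± 0.57 and LTR5_Hs by -0.38 ± 0.66, a sign set by a shift of all sequences, whose median was then -0.63. Both stood above that median, as they stood above the median of 0.0058 under TMM. The difference rested on clone 1. Without the clone 1 library with dox, HERVK differed by 0.02 ± 0.18 and LTR5_Hs by -0.07 ± 0.13. Without the clone 2 library with dox, the remaining clone 1 library gave 0.96 ± 0.17 for HERVK and 0.67 ± 0.13 for LTR5_Hs. EXOSC3r cells with dox then had no replicate. The error came from the pair of clones without dox and from the spread shared over all sequences.

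Without dox, EXOSC3r and PB cells gave 0 of 5 against a background of 0% (unadjusted 2.29%). HERVK was at 5744 ± 981 CPM in EXOSC3r cells (SD, n = 2) and 6221 CPM in PB cells. They differed by -0.12 ± 0.35 on the log2 scale (SE; edgeR, adjusted p = 0.97). LTR5_Hs differed by 0.03 ± 0.27. The largest of the 5 differences was that of LTR5A, 0.17 ± 0.08 (adjusted p = 0.97), with an unadjusted p of 0.093.

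Dox was last fitted across the 3 lines with the line as a term, which gave 0 of 5 against a background of 1.72% (unadjusted 10.3%). The log2 change of HERVK was -0.20 ± 0.21 (SE, edgeR, adjusted p = 0.81) and that of LTR5_Hs -0.0034 ± 0.14. Without clone 1 the remaining clone 2 and PB cells gave -0.61 ± 0.07 for HERVK and -0.28 ± 0.07 for LTR5_Hs, both of which passed (edgeR, adjusted p = 4.8e-17 and 0.00066). That fit has 2 lines, and its error comes from the closeness of the 2 changes together with a spread shared over all sequences. Clone 1 was left out because leaving out each line in turn was planned, so these values describe the other lines and do not replace the result over all 3. Without clone 2 the HERVK change was 0.03 ± 0.26, so the fitted direction also turned with the line left out.

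**Figure D4:**
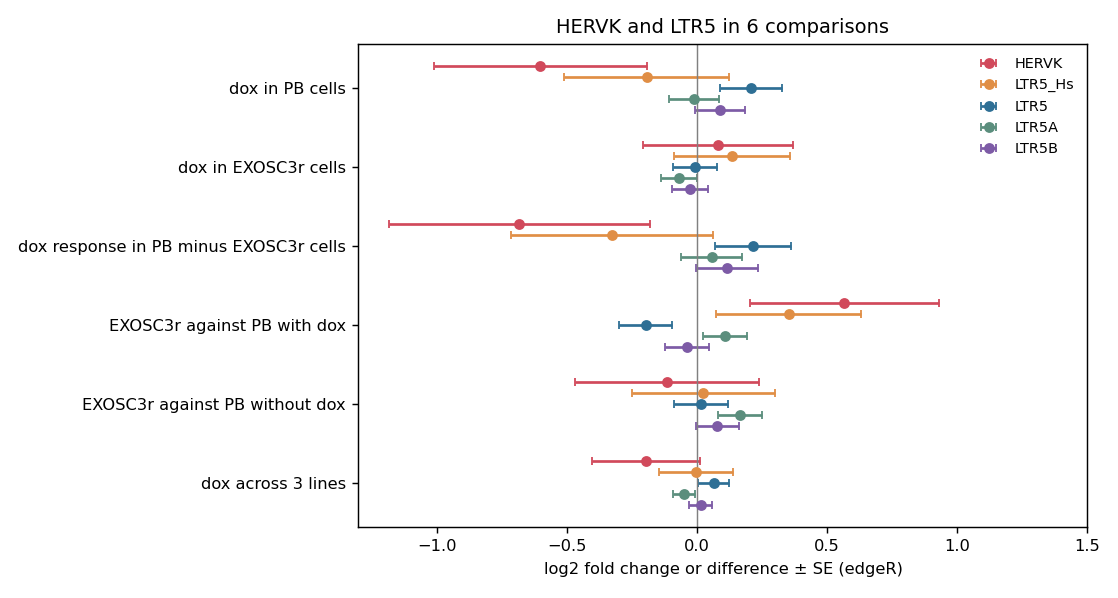
Log2 fold change or difference (x axis) with its standard error from edgeR for the 5 sequences in each of the 6 comparisons (rows). HERVK has the widest bars, up to 0.50, and no value passed after adjustment over 699 sequences.

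The internal part was then set against the LTRs, as HERVK counts per effective length over the summed counts per effective length of the 4 LTRs. The ratio was 0.259 with dox and 0.199 without in EXOSC3r clone 1, 0.178 with dox and 0.241 without in EXOSC3r clone 2, and 0.170 with dox and 0.248 without in PB cells. Internal sequence was therefore less abundant per length than the 4 LTRs summed in every library. The ratio moved with the level of HERVK, which is its numerator, so part of this holds by construction. The log2 change of the ratio with dox was 0.38 in clone 1, -0.44 in clone 2 and -0.55 in PB cells. Its mean of -0.20 ± 0.51 (SD, n = 3 lines) did not differ from 0 beyond the spread between lines (exact permutation test over sign changes, two-sided p = 0.50, where 0.25 is the smallest possible).

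Against LTR5_Hs alone the ratio was steadier. It was 0.438 with dox and 0.412 without in clone 1, 0.383 with dox and 0.456 without in clone 2, and 0.362 with dox and 0.479 without in PB cells. The log2 changes with dox were 0.09 in clone 1, -0.25 in clone 2 and -0.40 in PB cells. The ratio was thus lower with dox in clone 2 and PB cells and slightly higher in clone 1, a difference between lines that was not tested.

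The makeup of the LTR counts changed mainly through LTR5_Hs, whose level varied most of the 4. It held 58.1% of the counts of the 4 LTRs with dox and 47.2% without in clone 1, 45.2% with dox and 51.7% without in clone 2, and 45.9% with dox and 50.7% without in PB cells. The summed level of LTR5, LTR5A and LTR5B lay between 1382 CPM and 1505 CPM in the 6 libraries. Summed over the 4 LTRs before the fit, the log2 change with dox was 0.05 ± 0.13 in EXOSC3r cells and -0.05 ± 0.18 in PB cells (SE, edgeR, adjusted p = 1.00 for both).

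**Figure D5:**
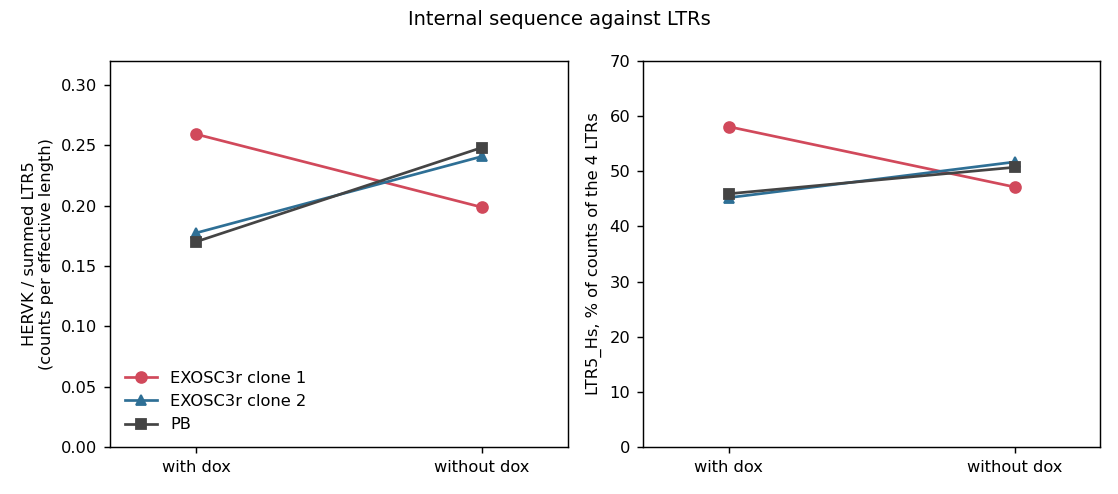
Left, HERVK over the summed LTRs as a ratio of counts per effective length (y axis from 0), right, LTR5_Hs as a percentage of the counts of the 4 LTRs, with and without dox. Each point is 1 library; both measures are highest in EXOSC3r clone 1 with dox, at 0.259 and 58.1%.

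Read assignment differed between the members. HERVK counts were whole numbers, to within 1e-06, in 6 of 6 libraries, whereas 0 of the 24 LTR counts were whole, so that reads of the LTRs were divided between similar sequences by estimation. SVA elements are composite retrotransposons, and those such as SVA_A end in a part derived from HERVK env and LTR sequence. Of the 2 tested SVA sequences, SVA_A was at 6460 CPM with dox and 6713 CPM without in EXOSC3r clone 1, 6181 CPM with dox and 6287 CPM without in clone 2, and 6761 CPM with dox and 6371 CPM without in PB cells. Its clone 1 minus clone 2 difference in the log2 change was -0.03, which ranked 195 of 253. SVA2 was at 142 CPM with dox and 125 CPM without in clone 1, 94.99 CPM with dox and 103 CPM without in clone 2, and 101 CPM with dox and 99.7 CPM without in PB cells. Its clone difference was 0.28, of the same sign as that of LTR5_Hs and ranked 19 of 253. SVA2 counts, between 390 and 559, were whole numbers in 6 of 6 libraries, as those of HERVK were, whereas those of SVA_A were not. How many reads SVA_A and LTR5_Hs exchanged was not tested.

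The other HERVK groups are older retroviruses that entered the genome separately and use other LTRs. None of their 7 tested internal sequences and none of the 23 tested LTRs passed in any of the 6 comparisons. Among all 699 sequences, between 0% and 1.72% passed, depending on the comparison, so few calls would be found in lists of this size. Their clone 1 minus clone 2 differences in the change with dox lay between -0.49 and 0.30 for the internal sequences and between -0.38 and 0.36 for the LTRs, against 1.28 for HERVK and 0.95 for LTR5_Hs. HERVK9I, the most abundant of these internal sequences, was at 1675 CPM with dox and 1645 CPM without in clone 1, 1770 CPM with dox and 1756 CPM without in clone 2, and 1758 CPM with dox and 1856 CPM without in PB cells. HERVK11I was at 941 CPM with dox and 707 CPM without in PB cells and HERVK3I at 396 CPM with dox and 517 CPM without, and neither change passed (log2 0.41 ± 0.17 and -0.39 ± 0.13, edgeR, adjusted p = 1.00). Their median log2 change was -0.08 in PB cells and 0.02 in EXOSC3r cells for the 7 internal sequences, and 0.02 in both for the 23 LTRs. Over the 5 HERVK and LTR5 sequences it was -0.01 in both, and over all 699 it was 0.0037 in PB cells and 0.0052 in EXOSC3r cells.

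HERVH differed from HERVK in its pattern. It was at 20520 CPM with dox and 27573 CPM without in EXOSC3r clone 1, 21047 CPM with dox and 28170 CPM without in clone 2, and 35679 CPM with dox and 28393 CPM without in PB cells. Its clones moved together, with log2 changes of -0.43 in clone 1 and -0.42 in clone 2, whereas HERVK moved in opposite directions in them. With dox, HERVH differed by -0.78 ± 0.10 between EXOSC3r and PB cells (log2, SE, edgeR), with 1 PB library. Of the 5 sequences in the HERVH and LTR7 list, LTR7A and LTR7B passed for dox across the 3 lines. Their log2 changes were -0.37 ± 0.07 and -0.38 ± 0.04 (SE, edgeR, adjusted p = 0.023 and 0.0014).

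The sequences with the pattern most like HERVK were found by the root mean square difference in log2 CPM over the 6 libraries, after each sequence was centred on its mean. LTR5_Hs was nearest of 698, at 0.14, against a median of 0.38. LTR58 (0.16), L1MEf_5end (0.18), CHESHIRE_A (0.18) and LTR31 (0.20) came next, of which LTR58 and LTR31 had means below 10 CPM. LTR5A ranked 112, LTR5B 297 and LTR5 489. For LTR5_Hs, CHESHIRE_A was nearest, at 0.12, and HERVK was at 0.14, ranked 5. CHESHIRE_A was at 249 CPM with dox and 179 CPM without in clone 1, 149 CPM with dox and 199 CPM without in clone 2, and 187 CPM with dox and 219 CPM without in PB cells. These libraries come from 3 lines and share their scaling, so that likeness over them is a description.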

How the data were processed

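Stranded total RNA libraries were prepared after removal of ribosomal RNA, per the labels' protocols. The submitters' processing notes name bcl2fastq 2.17, Trimmomatic 0.36 and Salmon 0.13.0, while the index, options and build are not given in the sources used here. The deposited estimated counts are not normalised, whereas the deposited TPM is relative to all 1047 sequences. Each consensus sums over its genomic copies, so it has no coordinates.

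Estimated counts were rounded. Sequences with at least 10 counts in at least 1 library, 699 of 799 with any count, were tested in R 4.3.3. The quasi-likelihood test of edgeR 4.0.16 was used after TMM scaling with 4 group means, which leaves 2 residual degrees of freedom, with Benjamini-Hochberg adjustment at 0.05. Variation between clones (biological coefficient) came to 12.2%. Each SE is the log2 change divided by the square root of F. Log2 CPM within lines used a prior count of 2. Dox and no-dox libraries of a line come from the same cells, so the line pairs them; clone deviations without and with dox correlated at 0.15 over the tested sequences (Pearson), or 0.60 among the 253 whose mean reached 100 CPM. Pairs of libraries had a chi-square per degree of freedom of at least 21.0, so none was a copy. The code was tested on simulated counts.

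The members and lists were chosen with earlier results of these data known. All members are named, with related lists by name and the nearest sequences by pattern. The planned pattern for MER9 also took 19 other MER names, which were left out, and the HERVK pattern missed HERV-K14I and HERV-K14CI. Alternatives were other scalings and filters, DESeq2 1.42.0, limma 3.58.1 on log2(TPM + 1) and log2(TPM + 0.1), the line as a block, left-out libraries and lines, and summed members. Scaling of the changes within lines was varied after seeing the data.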

Additional observations from a re-analysis of the deposited data

Results flagged for a closer look

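The changes with dox had opposite signs in EXOSC3r clone 1 and EXOSC3r clone 2 for 4 of the 5 sequences and for the ratio of HERVK to its LTRs, which picked them out. Clone 1 minus clone 2 was 1.28 on the log2 scale for HERVK, 0.95 for LTR5_Hs, -0.21 for LTR5 and -0.088 for LTR5B. For the ratio it was 0.83. The difference between the clones was not tested, since each clone gave 1 library with and 1 without dox. Opposite signs were present in 45.2% of all 699 tested sequences, so the sign alone says little for LTR5 and LTR5B.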

How the results depend on the processing

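The number of HERVK and LTR5 sequences called was 0 under every alternative but 2. Without the clone 2 library with dox, 2 were called for EXOSC3r against PB cells with dox, against 0 without each of the other clone libraries. Without clone 1, 2 were called for dox across 3 lines, against 0 without either other line. With the line as a block 0 were called and HERVK changed with dox by 0.02 ± 0.30 in EXOSC3r cells; the block changed no call of a member. Of 421 values of single members under alternatives, 356 kept their direction and side of the threshold, 4 passed, namely those of HERVK and LTR5_Hs in these 2 fits, and 61 changed sign without passing. The count called among all sequences lay between 1 and 7 for dox in PB cells (main 6), 0 and 9 in EXOSC3r cells (1), 0 and 7 for the interaction (0), 0 and 22 with dox (7), 0 and 2 without dox (0) and 0 and 28 across lines (12). The mean change of the HERVK to LTR ratio kept its sign under all alternatives. The causes were not tested.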
